A study of Rattus norvegicus with 36 samples.

Results

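In total, 10 members of the S100 family were followed across all 36 arrays of rat thyroid RNA. They were chosen by gene symbol: every non-control probe whose transcript accession belonged to S100a4, S100a7a, S100a7l2, S100a8, S100a9, S100a10, S100a14, S100a16, S100b or S100g was taken, which gave 12 probes of the 30367 probes tested. S100a7a and S100b had 2 probes each and the other members had 1. Of the 10 genes, 9 were named through RefSeq accessions and S100a14 through the probe table supplied with the study. The arrays came from adult male Sprague Dawley rats that received 131I, a beta-emitting iodine isotope taken up by the thyroid, into the tail vein in saline and were killed 24 h later. There were 8 activities with 4 rats each: 9 kBq, 88 kBq, 170 kBq and 260 kBq, and above these 340 kBq, 760 kBq, 1300 kBq and finally 4700 kBq. The 4 rats of the 0 kBq group were mock-treated. All rats were killed under sodium pentobarbital anesthesia, and no further treatment or allele is named. Each array held the RNA of 1 rat. Rats were injected in order of rising activity and the controls last, so the activity and the order of handling cannot be told apart.

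S100 proteins are small calcium-binding proteins with a pair of EF-hand loops, and most act as dimers that bind a partner protein when calcium is bound. The family is known for tight cell-type use. S100a7 proteins, S100a14 and S100a16 are known from stratified squamous epithelium. S100a8 and S100a9 form calprotectin, the abundant calcium-, zinc- and manganese-binding complex of neutrophils and monocytes. S100b is a marker of glia, which in peripheral tissue means Schwann cells, and is also made by cartilage and fat cells. S100a4 is typical of motile mesenchymal cells, S100a10 is the annexin A2 partner, and S100g, or calbindin-D9k, buffers calcium in absorbing epithelia.

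Of the 10 genes, 8 lie on rat chromosome 2 in RefSeq, in the order S100a14, S100a16, S100a4, S100a7a, S100a8, S100a9, S100a7l2 and S100a10, while S100b is on chromosome 20 and S100g is on chromosome X. Promoter windows of 250 bases before and 50 bases after the start were found in RefSeq (build GRCr8) for 7 of the 10 members. The windows of the 4 squamous-linked members, whose values varied together over the rats, are shown with that of S100a9, a neighbouring gene of the calprotectin pair. Capitals mark a match to the common core promoter element, searched as TATAAA on both strands. The AP-1 site was searched as well, with the letters TGANTCA on both strands. The windows are at chr2:178448733-178449032 on the plus strand for S100a7a, chr2:178851846-178852145 on the plus strand for S100a7l2, chr2:178305726-178306025 on the plus strand for S100a14, chr2:178313736-178314035 on the plus strand for S100a16 and chr2:178490573-178490872 on the minus strand for S100a9.
S100a7a: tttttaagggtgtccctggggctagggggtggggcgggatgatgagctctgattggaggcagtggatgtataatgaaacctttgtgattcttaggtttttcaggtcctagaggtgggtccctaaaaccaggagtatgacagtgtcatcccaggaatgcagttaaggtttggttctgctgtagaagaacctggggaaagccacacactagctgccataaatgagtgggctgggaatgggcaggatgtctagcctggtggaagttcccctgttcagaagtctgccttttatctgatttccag
S100a7l2: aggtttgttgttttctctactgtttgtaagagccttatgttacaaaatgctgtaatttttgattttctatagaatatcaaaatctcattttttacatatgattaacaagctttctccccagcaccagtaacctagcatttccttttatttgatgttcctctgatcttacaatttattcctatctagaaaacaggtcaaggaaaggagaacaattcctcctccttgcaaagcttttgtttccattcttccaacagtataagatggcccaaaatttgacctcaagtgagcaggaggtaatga
S100a14: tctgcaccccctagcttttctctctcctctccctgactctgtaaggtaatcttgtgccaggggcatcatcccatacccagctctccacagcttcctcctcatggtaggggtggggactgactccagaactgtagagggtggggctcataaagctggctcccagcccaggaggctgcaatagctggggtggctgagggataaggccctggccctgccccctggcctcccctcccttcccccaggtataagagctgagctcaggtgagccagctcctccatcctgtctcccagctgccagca
S100a16: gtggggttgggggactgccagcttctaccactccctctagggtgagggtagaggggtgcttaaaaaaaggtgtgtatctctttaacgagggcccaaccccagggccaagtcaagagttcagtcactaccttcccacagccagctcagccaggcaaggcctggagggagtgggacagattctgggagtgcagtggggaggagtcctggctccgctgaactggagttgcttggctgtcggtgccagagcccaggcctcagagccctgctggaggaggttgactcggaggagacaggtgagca
S100a9: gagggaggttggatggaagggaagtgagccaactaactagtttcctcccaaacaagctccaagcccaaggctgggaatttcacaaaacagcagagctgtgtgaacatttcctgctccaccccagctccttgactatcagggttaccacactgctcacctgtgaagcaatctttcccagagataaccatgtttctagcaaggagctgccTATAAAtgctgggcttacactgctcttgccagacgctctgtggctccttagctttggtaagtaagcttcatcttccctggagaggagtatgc
TATAAA was found 42 bases before the start of S100a9 and in no window of the 4 squamous-linked members. It was held by 14.2% of the 33469 promoter windows of this length. TGANTCA was found in none of the 5 windows and in 7.33% of all windows. After gapped alignment, the windows of S100a7a and S100a7l2 matched at 55.0% of positions and those of S100a14 and S100a16 at 58.7%. S100a9 matched these 4 at 56.3% to 60.3%, so the windows of the squamous-linked members were no more alike to each other than to that of S100a9. Unrelated windows were not aligned, so these shares have no baseline and are not read as likeness.

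Levels are given as log2 of the background-corrected signal minus the 75th percentile of the array, so 0 is the brightness that 25% of the spots exceeded. Levels of different genes come from different probes and are not set against each other. Between 62.6% and 91.0% of the probes were well above background, and the highest share belonged to 340 kBq rat 4. Markers of the thyroid itself were uneven. Thyroglobulin (Tg), the hormone precursor, ranged from -4.51 to 7.48, and the mean of 12 follicle genes lay between -5.04 and -0.75 in 18 rats and between 1.25 and 2.71 in the other 18. The 11 skeletal muscle genes averaged -3.87 to 6.96, and the 21 squamous epithelium genes, which include Krt5, Krt13 and Tp63, averaged -5.54 to 3.82. In whole tissue, fewer cells of a type and less RNA per cell cannot be told apart.

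The squamous-linked members were low in most rats and high in the rest, across the activity groups. S100a14, a squamous epithelial S100 protein, was at or below -3.68 in 23 rats and at or above -0.51 in 13 rats. Its control values were -4.78, -4.48, 1.56 and -4.10 in rats 1 to 4. At 9 kBq it was -5.44, -3.97, 3.47 and 3.18. At 260 kBq it was -0.51, -3.68, 1.84 and 0.96. High rats were thus found without irradiation and at low activity alike. At 88 kBq the values were -4.98, 3.103, -4.33 and -4.36, and at 170 kBq they were -5.04, -4.56, -4.97 and 3.61. At 340 kBq they were 2.24, -3.76, 2.36 and -4.79, and at 760 kBq they were 2.39, 3.05, -4.51 and -4.66. At 1300 kBq they were -4.88, -4.84, -0.14 and -4.52. Only 4700 kBq held no high rat, with values of -4.73, -3.97, -4.67 and -4.68. The number of high rats out of 4 was 1, 2, 1, 1, 3, 2, 2, 1 and 0 from 0 to 4700 kBq. The groups overlapped with the controls at every activity.

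**Figure D1:**
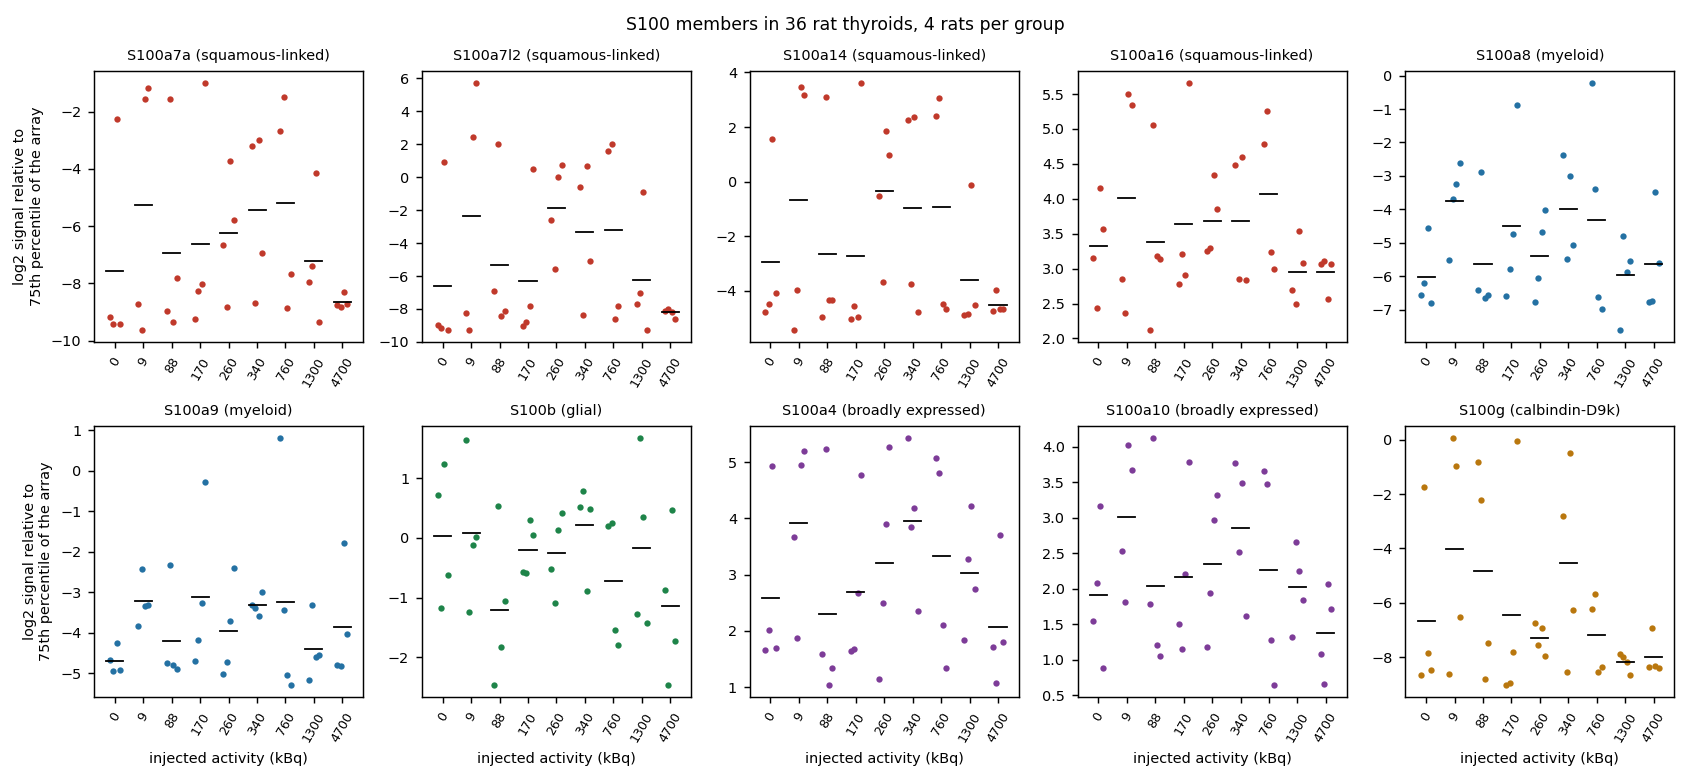
Log2 signal of the main probe of each S100 member relative to the 75th percentile of the array (y axis, a separate scale for each gene), by injected activity (x axis, kBq); points are single rats, 4 per group, and black lines are group means. S100a14 shows a low set of 23 rats and a high set of 13 rats that cuts across the groups, with 1 high rat among the controls and none at 4700 kBq.

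S100a7a and S100a7l2, rat relatives of psoriasin, were high in the same rats. The 13 rats with the highest S100a7l2 were the 13 with high S100a14, and so were the 13 with the highest S100a7a. S100a7l2 was 0.89 in control rat 3 and -9.26 to -8.97 in the other 3 controls. At 9 kBq it was -8.23, -9.26, 2.46 and 5.71, where 5.71 was its highest value of all. At 4700 kBq it was -8.59 to -7.97, with no array well above background, as against 1 of 4 control arrays. S100a7a behaved alike, at -2.26 in control rat 3 and -9.42 to -9.16 in the others, and at -8.81 to -8.30 at 4700 kBq. Its second probe followed the first within 1.75 and was well above background on 12 arrays against 13. S100a7l2 was well above background on 15 of 36 arrays, and for both genes the values on the other arrays are at the background and have no order. Whether the probes of these related genes share target RNA was not tested.

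S100a16, a broader epithelial member, was well above background in all 36 rats and followed the same rats over a smaller range. Its control values were 3.15, 2.44, 4.16 and 3.57, and the highest was again rat 3. At 9 kBq they were 2.85, 2.36, 5.50 and 5.34. At 170 kBq they were 2.78, 3.21, 2.90 and 5.66, and 5.66 was its highest value in any rat. The groups overlapped at every activity.

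**Figure D2:**
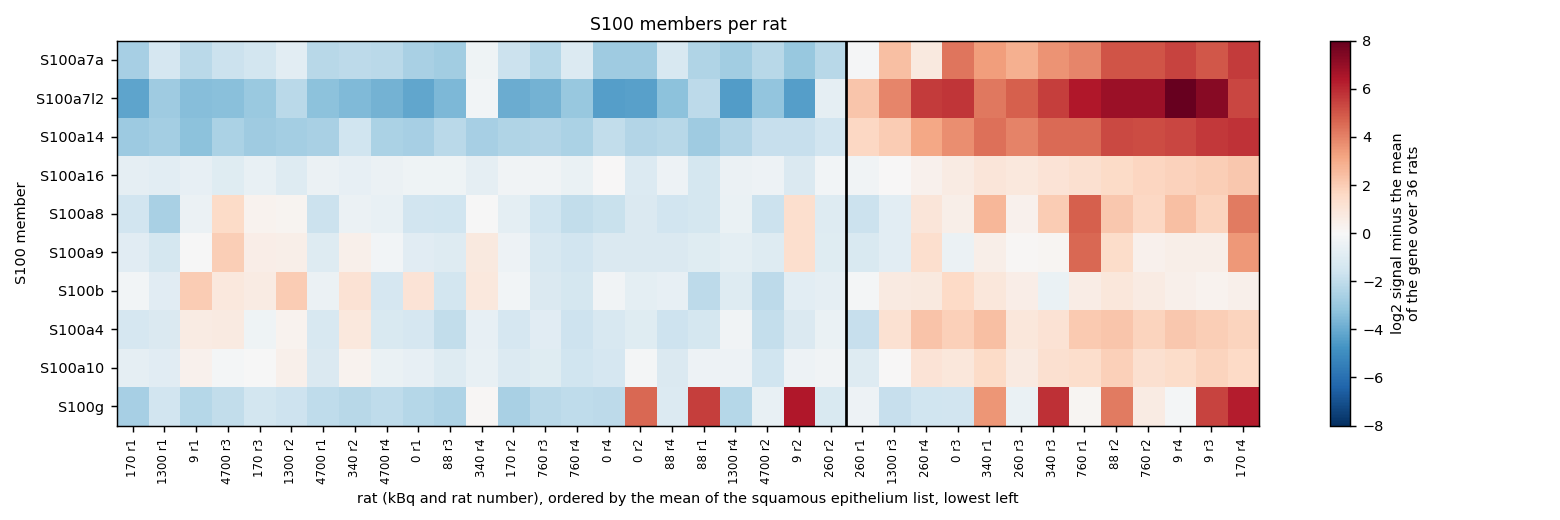
Log2 signal of the 10 S100 members minus the mean of each gene over 36 rats (colour, saturating at -8 and 8), with 1 column per rat labelled by activity in kBq and rat number, ordered from left to right by the mean of the squamous epithelium list; the black line marks the widest gap in that mean. To the right of the line lie 13 rats in which S100a7l2 and S100a14 are above their means, as are S100a7a and S100a16 except in 260 kBq rat 1, while S100b and S100g have high rats on both sides of it.

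The spread between rats of 1 group was therefore among the widest on the array for several members. The within-group SD was 4.71 for S100a7l2, 3.46 for S100a14 and 3.18 for S100a7a, higher than in 99.8%, 99.4% and 99.2% of all probes, whose median was 0.67. It was 2.95 for S100g, 1.82 for S100a8, 1.54 for S100a4 and 1.41 for S100a9. It was 1.08 for S100b, 1.07 for S100a10 and 1.02 for S100a16. Each of the 10 members varied more within groups than the median probe.

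To separate the members by their pattern over rats, their deviations from the group means were related to the means of 10 marker lists, to the share of probes above background and to each other. These were 155 relations, tested by permutation within groups with Benjamini-Hochberg adjustment over all of them. At an adjusted p under 0.05, 95 passed, 76 of them positive, and 37 of the 45 pairs of members passed. The 19 below 0 were with the follicle list, the adipose list and the share of probes above background. How many such relations other genes on the array would pass was not tested, so the counts are not read as particular to the members. With the follicle list every member but S100g passed, with r of -0.46 to -0.75 (adjusted permutation p of 7.38e-05 to 0.0217). By rho S100a16 did not pass either (rho = -0.37, adjusted permutation p = 0.0755). Its call was lost in 7 of 45 settings and that of S100a9 in 4. With the adipose list every member but S100a9 and S100b passed, with r of -0.48 to -0.62 (adjusted permutation p of 0.00397 to 0.0164). Values that fell into 2 separate sets were related within each set. There the levels were not centred on the groups, permutation was over the rats of the set and adjustment was over 348 such relations. Within the 18 follicle-high and the 18 follicle-low rats, 1 and 0 of 10 follicle relations passed. The widest gap of the squamous list, just under the limit of 25% of the range for such sets, left the same 13 and 23 rats as S100a14. No pooled coefficient is given for that list. The differences between coefficients of different members were not tested.

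Within the 13 high rats, S100a14 followed the squamous list with r = 0.99 and rho = 0.99 (adjusted permutation p = 0.000435 for both). S100a16 followed it with r = 0.96 and rho = 0.99 (adjusted permutation p = 0.000435 for both). S100a7a followed it with r = 0.86 and rho = 0.90 (adjusted permutation p = 0.00661 and 0.00174). S100a7l2 gave r = 0.74 and rho = 0.69 (adjusted permutation p = 0.0199 and 0.0515). Without the 2 rats farthest from the median of the list, r was 0.97 for both S100a14 and S100a16, 0.82 for S100a7a and 0.51 for S100a7l2, so the last rests in part on those rats. Within the 23 low rats S100a14 followed the list, with r = 0.70 and rho = 0.67 (adjusted permutation p = 0.00331 and 0.00835), and r = 0.54 without the 2 farthest rats. S100a16 gave r = 0.16 and rho = 0.27 there (adjusted permutation p = 0.668 and 0.391). S100a7a was well above background on 0 and S100a7l2 on 2 of these 23 arrays, so neither could be related to the list there. Of the 13 high rats, 11 were on the low side of the follicle genes, and of the 23 low rats, 7 were.

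The myeloid pair varied together, over all rats and within each set of them tested. S100a8 and S100a9 are the subunits of calprotectin, and their deviations gave r = 0.90 and rho = 0.82 over 36 rats (adjusted permutation p = 7.38e-05 and 0.000155). The coefficient was 0.84 without the 2 farthest rats, 0.79 to 0.95 within the 5 slides, and 0.93 and 0.88 on the 2 scan days. It was 0.88 within the 13 high rats (rho = 0.86, adjusted permutation p = 0.00213 and 0.00443) and 0.95 within the 23 low rats (rho = 0.91, adjusted permutation p = 0.000435 for both). S100a8 was well above background on 31 of 36 arrays and on 18 of the 23 low ones, so relations in the low rats include values at the background. S100a8 was the gene most like S100a9 among 11775 genes and S100a9 the gene most like S100a8. The next for S100a8 were Lgals3, which encodes galectin-3, S100a10, Slc5a1 and Vav3 with r of 0.87 to 0.88. The next for S100a9 were Apoc1, Slc26a2, Irak3 and Ppp1r12a with r of 0.73 to 0.75.

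The pair was also read against the squamous rats. S100a9 was highest in 760 kBq rat 1 at 0.81, in 170 kBq rat 4 at -0.28 and in 4700 kBq rat 3 at -1.78. The first 2 are squamous-high rats and the last is not. The medians of S100a8 and S100a9 were -3.24 and -3.32 in the 13 high rats and -6.21 and -4.70 in the 23 low rats. The sets overlapped for both genes. Within the 13 high rats S100a8 rose with the squamous list, with r = 0.81 and rho = 0.68 (adjusted permutation p = 0.00805 and 0.0595), and r = 0.54 without the 2 farthest rats. S100a9 gave r = 0.57 and rho = 0.61 there (adjusted permutation p = 0.127 and 0.109). Within the 23 low rats neither followed it, at r = 0.01 for S100a8 and r = -0.16 for S100a9 (rho = -0.08 and -0.25, adjusted permutation p of 0.663 to 0.979).

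Markers of the cells that carry calprotectin were read beside the pair. The neutrophil list had 14 genes with a probe, of which 6 were well above background on at least 18 arrays, and Elane, the neutrophil elastase, was above it on none. The list mean lay between -7.05 and -4.91. S100a9 followed it with r = 0.32 and rho = 0.39 (adjusted permutation p = 0.00996 and 0.0357), and S100a8 gave r = 0.21 and rho = 0.34 (adjusted permutation p = 0.244 and 0.0822). The 13 macrophage genes, each well above background on at least 18 arrays, averaged -2.01 to 0.38, with r = 0.70 and rho = 0.66 for S100a8 (adjusted permutation p = 0.000387 and 0.00134) and r = 0.59 and rho = 0.56 for S100a9 (adjusted permutation p = 0.00397 and 0.00583). Without the 2 farthest rats, r with the neutrophil list was 0.34 for S100a8 and 0.33 for S100a9, and with the macrophage list it was 0.67 and 0.52. Within the 5 slides, r with the neutrophil list ran from -0.11 to 0.66 for S100a8 and from -0.12 to 0.77 for S100a9, and r with the macrophage list ran from 0.32 to 0.88 and from -0.24 to 0.92. The S100a9 relation to either list thus did not hold on every slide. Lists of other cell types gave coefficients of like size. With the fibroblast list, S100a8 gave r = 0.67 and rho = 0.72 (adjusted permutation p = 0.000271 and 0.00027) and S100a9 r = 0.55 and rho = 0.61 (adjusted permutation p = 0.00416 and 0.00165). With the cartilage list, S100a8 gave r = 0.62 and rho = 0.58 (adjusted permutation p = 0.00101 and 0.00411) and S100a9 r = 0.59 and rho = 0.58 (adjusted permutation p = 0.000107 and 0.00292). The part of any of these cell types in the S100 levels was not tested.

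S100b followed the Schwann cell list, though not that list alone, and its highest values, 1.67 and 1.64, lay outside the squamous-high rats. Its values were 0.72, -1.17, 1.24 and -0.63 in the controls. They were 1.64, -1.24, -0.12 and 0.02 at 9 kBq, -1.27, 1.67, 0.36 and -1.42 at 1300 kBq, and -0.87, -2.47, 0.47 and -1.72 at 4700 kBq. The highest were 1.67 and 1.64, in rats of the low squamous set. Over that set of 23 rats S100b ranged from -2.47 to 1.67 with a median of -1.06, and over the 13 squamous-high rats from -0.88 to 1.24 with a median of 0.21, so the sets overlapped. Its deviations and the 13 Schwann cell genes gave r = 0.74 and rho = 0.74 (adjusted permutation p = 0.000177 and 0.000277), with r = 0.70 without the 2 farthest rats and 0.51 to 0.96 within slides. Against the squamous list it gave r = 0.01 and rho = -0.26 in the 13 high rats. In the 23 low rats S100b was lower where the list was higher, with r = -0.51 and rho = -0.55 (adjusted permutation p of 0.0394 to 0.990 over both sets).

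S100b was not tied to Schwann cell genes alone. It gave r = 0.73 and rho = 0.72 with the 10 fibroblast genes (adjusted permutation p = 0.000387 and 0.000431) and r = 0.69 and rho = 0.66 with the 11 cartilage genes (adjusted permutation p = 0.000177 and 0.000542). Within slides these ran from 0.17 to 0.90 and from 0.30 to 0.88, and without the 2 farthest rats they were 0.70 and 0.67. With the 9 adipose genes S100b gave r = 0.15 and rho = 0.12 (adjusted permutation p = 0.534 and 0.615). Within the 13 high rats the Schwann relation was r = 0.38 and rho = 0.38 (adjusted permutation p = 0.383 and 0.380) and within the 23 low rats it was r = 0.78 and rho = 0.77 (adjusted permutation p = 0.000773 and 0.00162). The genes most like S100b were Sncg (r = 0.95), Nnmt (r = 0.94), Aoc3 (r = 0.91), Cmtm5 (r = 0.88) and Cav2 (r = 0.87). A second S100b probe was well above background on 2 of 36 arrays and lay 5.998 to 9.59 below the first, so the 2 probes disagree and S100b rests on the first alone.

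**Figure D3:**
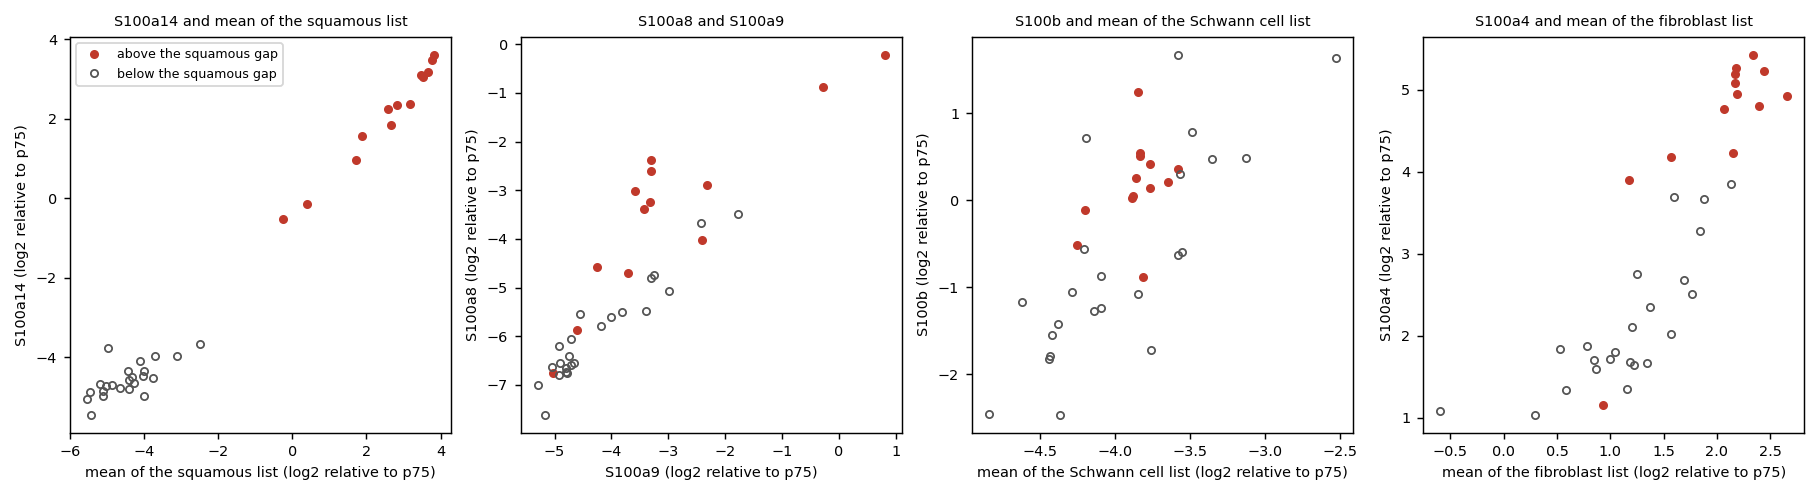
Log2 signal relative to the 75th percentile of the array (p75) of S100a14, S100a8, S100b and S100a4 (y axes) against the mean of the squamous list, S100a9, the mean of the Schwann cell list and the mean of the fibroblast list (x axes); each point is 1 of 36 rats, filled red for the 13 rats above the gap of the squamous list and open grey for the 23 below it. S100a14 splits at the gap, S100a8 rises with S100a9 on both sides, S100b rises with the Schwann cell list and is highest in open points, and S100a4 rises with the fibroblast list.

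S100a4 and S100a10 varied together, and neither was apart from the squamous sets. In the 13 squamous-high rats their medians were 4.93 and 3.49, and in the 23 low rats they were 1.84 and 1.62. The sets overlapped for both genes. Their deviations gave r = 0.95 and rho = 0.95 (adjusted permutation p = 7.38e-05 and 0.000103), with 0.94 without the 2 farthest rats and 0.86 to 0.98 within slides. S100a4 was 1.66, 2.02, 4.93 and 1.70 in the controls and 1.72, 1.08, 3.70 and 1.80 at 4700 kBq. S100a10 was 1.55, 2.08, 3.16 and 0.89 in the controls and 1.08, 0.66, 2.07 and 1.71 at 4700 kBq. Rat 3 was the highest in both groups for both genes. Both followed the fibroblast list, with r = 0.87 and rho = 0.90 for S100a4 and r = 0.82 and rho = 0.87 for S100a10 (adjusted permutation p = 7.38e-05 and 0.000103 for both). Both followed the cartilage list too, with r = 0.78 and rho = 0.78 for S100a4 (adjusted permutation p = 0.000141 and 0.000103) and r = 0.73 and rho = 0.70 for S100a10 (adjusted permutation p = 0.000369 and 0.000567), and r ran from 0.42 to 0.93 and from 0.26 to 0.88 within slides. Both also followed the macrophage list, with r = 0.71 and rho = 0.72 for S100a4 (adjusted permutation p = 0.000271 and 0.00031) and r = 0.78 and rho = 0.77 for S100a10 (adjusted permutation p = 0.000107 and 0.000155). Within slides, r with the fibroblast list ran from 0.51 to 0.96 for S100a4 and from 0.43 to 0.93 for S100a10, and r with the macrophage list from 0.12 to 0.89 and from 0.29 to 0.90. Within the 13 high rats the fibroblast relation was r = 0.83 for S100a4 and r = 0.64 for S100a10 (rho = 0.70 and 0.43, adjusted permutation p of 0.00584 to 0.318). In the same 13 rats S100a10 followed the squamous list with r = 0.91 and rho = 0.79 (adjusted permutation p = 0.00213 and 0.0224), and r = 0.67 without the 2 farthest rats. S100a4 gave r = 0.68 and rho = 0.20 with it (adjusted permutation p = 0.0704 and 0.685). Within the 23 low rats the fibroblast relations were r = 0.79 for S100a4 and r = 0.80 for S100a10 (rho = 0.80 for both, adjusted permutation p of 0.000435 to 0.000696). Against the share of probes above background, r was below 0 for 9 of the 10 members and passed for S100a4 and S100a10, with r = -0.44 and -0.42 (rho = -0.46 and -0.45, slides -0.83 to 0.23, adjusted permutation p of 0.0134 to 0.0219), and the part of that share in their levels was not tested. The gene most like S100a4 was S100a6, a further chromosome 2 S100 gene, with r = 0.97, and the gene most like S100a10 was Slc66a3 with r = 0.98.

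S100g was high in a smaller set of rats. It was at or above -2.79 in 8 rats and at or below -5.68 in the other 28. The 8 rats were control rat 2 (-1.73), 9 kBq rats 2 (0.05) and 3 (-0.96), 88 kBq rats 1 (-0.84) and 2 (-2.21), 170 kBq rat 4 (-0.06) and 340 kBq rats 1 (-2.79) and 3 (-0.49). Of these, 3 were below the gap of the squamous list and 5 were above it. No array at 1300 or 4700 kBq was well above background, as against 1 of 4 control arrays. The genes most like S100g were Bard1, Aurka, Hmgb2, Ska1 and Cdc45, which act in DNA replication, repair or mitosis, with r of 0.90 to 0.91 over 36 rats. As S100g falls into 2 sets, these r mostly follow the sets, and they were 0.38 to 0.56 within the 8 rats. In the other 28 rats S100g was well above background on 6 arrays, so no relation is read from them.

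The genes most like the squamous-linked members were named by the highest r over 36 rats. For S100a14 they were Cnfn, Fam25a, Klk11, Crabp2 and Sprr3 with r of 0.99, and Cnfn and Sprr3 are also in the squamous list. For S100a7a they were Spink5, Lce1e, Alox12b, Elmod1 and Lce1m with r of 0.98. For S100a7l2 they were Spink5, Lce1e, Trex2, Loricrin and Rptn with r of 0.97, and for S100a16 they included Itpkc, Nuak2, Rarg and Ecm1 with r of 0.97 to 0.98. As these members follow the 2 sets of rats, the coefficients were also taken within them. They were 0.78 to 0.99 in the 13 high rats for S100a14, S100a7a and S100a7l2, and 0.25 to 0.61 in the 23 low rats, where S100a7a and S100a7l2 were mostly at the background. For S100a16 they were 0.97 to 0.98 in the 13 high rats and 0.56 to 0.86 in the 23 low rats.

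In the comparisons with the controls no probe on the array was called regulated, and so none of the members. A probe counted as regulated in limma where its adjusted p was below 0.01 and its level changed 1.5-fold or more, with 1 mean per group over the 36 arrays. None of the 12 member probes passed in any of the 8 comparisons with the controls, and none of the 30367 probes did, which is 0% in each. At an unadjusted p under 0.05, the share of all probes was 3.22% at 9 kBq, 3.36% at 88 kBq, 2.36% at 170 kBq, 1.12% at 260 kBq, 13.7% at 340 kBq, 1.64% at 760 kBq, 4.18% at 1300 kBq and 1.66% at 4700 kBq. The only member probe among these was the second, dim S100b probe at 1300 kBq. All 80 intervals (95%) of the main probes covered 0, and they reached from 1.43 to 6.54 to either side of the estimate on the log2 scale. Each interval used 1 spread per probe shared by the 9 groups, although the group SDs differed. For S100a9 they ran from 0.25 at 340 kBq to 2.82 at 760 kBq. Changes within these widths were not detectable in this fit with 4 rats per group.

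The sizes of the differences are given for description. S100a7l2 differed from the controls by 4.29 at 9 kBq and 4.77 at 260 kBq (log2, SE 3.20), with 95% intervals of -2.25 to 10.8 and -1.77 to 11.3. S100a14 differed by 2.60 at 260 kBq and -1.56 at 4700 kBq (SE 2.35). S100a8 differed by 2.28 at 9 kBq (SE 1.24, unadjusted p = 0.0771 and adjusted p = 0.999 in limma), with an interval of -0.26 to 4.82. That was the smallest unadjusted p of the 80. S100b differed by 0.18 at 340 kBq and -1.24 at 88 kBq (SE 0.74). The median of the 12 member probes was 1.75, 0.40, 0.31, 0.64, 1.37, 1.10, 0.09 and -0.81 from 9 to 4700 kBq, beside 0.07, 0.09, 0.12, 0.03, 0.31, 0.08, 0.22 and 0.09 for all probes. Quantile normalization brought the medians of all probes to between -0.02 and 0.04. The 8 comparisons share the 4 control rats, and 1 of those was a squamous-high rat.

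**Figure D4:**
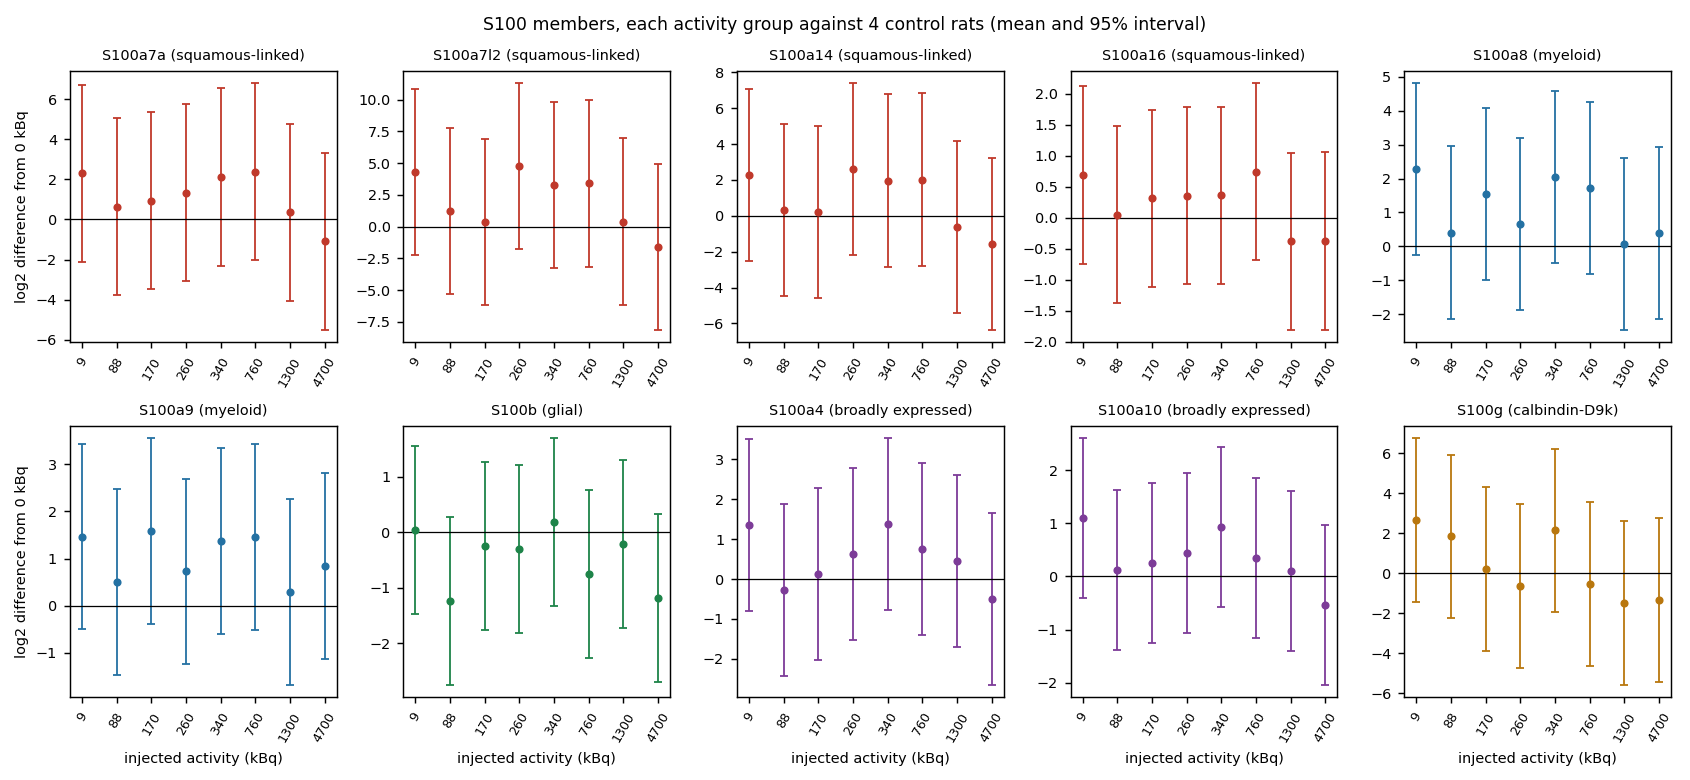
Log2 difference of each activity group from the 0 kBq group for the main probe of each S100 member (y axis, a separate scale for each gene; x axis, kBq), as the limma estimate with its 95% interval, 4 rats against 4. Every interval covers 0, and the intervals of S100a7l2 are the widest.

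S100a9 was the 1 member whose irradiated rats all lay above all controls. Its control values were -4.66, -4.93, -4.26 and -4.92. At 9 kBq they were -3.82, -2.43, -3.32 and -3.31, and at 340 kBq they were -3.31, -3.39, -3.59 and -2.99. The groups did not overlap at these activities, and at the other 6 they did. Of all probes, 1.48% at 9 kBq and 4.04% at 340 kBq lay above all controls in the same way. The differences were 1.47 and 1.37 on the log2 scale (SE 0.96, from the spread shared by the 9 groups). The SD of S100a9 was 0.31 in the controls, 0.58 at 9 kBq and 0.25 at 340 kBq. The two-sided exact permutation p was 0.0286 for each difference, the smallest that 4 against 4 allows, and 0.904 after adjustment over the 80 comparisons.

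A single test over all 9 groups called 4 probes, or 0.0132%, and no member. At an unadjusted p under 0.05 that F test took 2.69% of all probes and no member probe. The slope on the logarithm of the injected activity over the 32 irradiated rats also called 4 probes, or 0.0132%, and no member. At an unadjusted p under 0.05 the slope took 10.9% of all probes and 1 member probe, S100g. Its slope was -1.64 per 10-fold rise in activity (log2, SE 0.61, unadjusted p = 0.0118 and adjusted p = 0.318 in limma). S100g has no level above background at 1300 and 4700 kBq, so this slope is bounded by the background, and without 9 kBq rat 2 it was -1.27 (unadjusted p = 0.0567 in limma).

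A change of weighting altered the call at 9 kBq. With limma array weights, which let arrays that fit their group count more, 7 of the 12 member probes passed at 9 kBq beside 7.75% of all probes. They were both S100a7a probes, S100a7l2, S100a14, S100a16, S100a4 and S100a10, with differences of 1.88 to 11.6 and adjusted p of 0.00317 to 0.00931. In the same fit, 9 kBq rat 4, a squamous-high rat, had the largest weight of all at 4.55, and 9 kBq rat 2 had 0.284. Control rats 1 to 4 had 2.83, 0.88, 0.41 and 1.13, and rat 3 was the squamous-high control. The S100a7a and S100a7l2 probes were well above background on 1 of 4 control arrays, so their differences are measured largely from the background. Without 9 kBq rat 4, no member probe and no other probe passed at 9 kBq under array weights. The F test with array weights called 1.56% of all probes and 1 member probe, S100a7l2.

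The other genes of the family and its partners were read from lists. None of the 7 further S100 genes, which are S100a1, S100a3, S100a5, S100a6, S100a11, S100a13 and S100z, was regulated in any comparison, and their median difference ran from -0.16 to 0.51. At an unadjusted p under 0.05 only S100a1, a muscle S100 protein, at 9 kBq (-0.65, SE 0.31) and S100z, which was well above background on 2 arrays, at 340 kBq (1.59, SE 0.63) were taken. That limit took 3.22% of all probes at 9 kBq, 3.36% at 88 kBq, 2.36% at 170 kBq and 13.7% at 340 kBq. The genes it took are therefore not read as a result about these lists. Of the fused S100 genes, large proteins of the cornified layer that carry an S100 domain, Rptn and Crnn had a probe. Neither was regulated, and Crnn reached an unadjusted p under 0.05 at 170 kBq (2.35, SE 1.13) and 340 kBq (3.90, SE 1.13, adjusted p = 0.194 in limma). Crnn was well above background on 12 of 36 arrays and on 0 of 4 control arrays, so these differences are measured from the background. Of 11 partners and receptors, none was regulated. Atp2b1, a plasma membrane calcium pump, at 340 kBq (0.74, SE 0.29) and Vdr, the vitamin D receptor, at 88 kBq (1.77, SE 0.75) and 170 kBq (1.70, SE 0.75) reached an unadjusted p under 0.05. Anxa2, the partner of S100a10, and Ager and Tlr4, receptors of S100 proteins, did not at any activity. None of the 10 marker lists held a regulated gene in any comparison either.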

How the data were processed

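Gene expression was measured on 1-colour Agilent rat arrays, 1 per rat. The authors deposited scanner output, and per the file headers the intensity used was the processed signal, after background subtraction by the scanner software. The submitters' processing notes name Partek; the steps behind the deposited matrix of intensity values were not given in the sources used here. Log2 values were computed from the deposited intensity, the 75th percentile over the non-control probes of each array was subtracted, outlier spots were left out and spots of a probe averaged. Of 30367 probes, 99 lacked a value on at least 1 array and the fit used their remaining arrays. Tests used limma 3.58.1 in R 4.3.3 with Benjamini-Hochberg adjustment over all probes. A probe was called where its adjusted p was below 0.01 and its level changed 1.5-fold or more. Relations used 100000 permutations within groups (smallest p 1e-05). No p-value was computed for likeness between genes, for which probes with 1 gene symbol and well above background on at least 18 arrays were ranked by Pearson r, and the 5 highest were named for each member, apart from a gene that is not reported here. Where a gene had several probes, the one with the highest mean was the main probe. A probe was well above background where at least 50% of its spots carried the scanner's mark. No spot was saturated; with 4 arrays per group, precision is set by their number. Exact permutation tests were run for all 80 member comparisons. Members and lists were chosen with earlier results of these data known. Steps were tested on simulated data. Alternatives were other scalings, background corrections, filters, blocks for slide (5), scan day (2) and rat number, array weights, and each rat left out. Rats with the same number did not deviate together (median r -0.027 over pairs, -0.030 for different numbers), so the numbers do not pair samples. The p-values cover the spread between rats.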

Additional observations from a re-analysis of the deposited data

Results flagged for a closer look

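Of 90 sets of 4 rats, each a member in an activity group, 19 held a rat that stood far from the other 3 by Dixon's test. Chance flags about 1 in 20 sets, and the members vary together, so the 19 are not independent. In the squamous-linked members the high rat was control rat 3, with -2.26 for S100a7a, 0.89 for S100a7l2 and 1.56 for S100a14. At 88 kBq it was rat 2, with 1.996 for S100a7l2 and 3.103 for S100a14. At 170 kBq it was rat 4, with -1.002 for S100a7a, 0.50 for S100a7l2, 3.61 for S100a14 and 5.66 for S100a16. S100a14 also stood apart at 1300 kBq in rat 3 (-0.14) and at 4700 kBq in rat 2 (-3.97), and S100a16 stood apart at the low end at 4700 kBq in rat 3 (2.56).

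The same rats stood apart for other members. At 88 kBq rat 2 was high for S100a8 (-2.90), S100a9 (-2.32) and S100a4 (5.235), and control rat 3 was high for S100a4 (4.93). For S100g the high rats were control rat 2 (-1.73), 170 kBq rat 4 (-0.0597) and 4700 kBq rat 2 (-6.93), the last on an array where S100g was not well above background.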

How the results depend on the processing

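The count of member probes regulated against the controls was 0 under each alternative scaling, background correction, filter, block and limit tried, and 0 with any single rat left out, apart from array weights. Array weights gave 7 member probes at 9 kBq and 1 over all 9 groups. Without 9 kBq rat 4, an alternative chosen after seeing the data, array weights gave 0 at 9 kBq. The test over all 9 groups was not counted there. With rat number as a replicate block the counts of regulated probes were 0 and the relations called were 98. The relations called were 95, with 83 to 99 when 1 rat was left out. Within the 13 rats above and the 23 rats below the squamous gap, a split chosen after seeing the data, 35 and 31 of 145 were called. That split has fewer rats. Of the single relations, 47 of 853 values under other settings and 89 of 3420 with 1 rat left out lost their call, and 0 reversed. The exact tests for all 80 comparisons were also added after seeing the data. Among the 80 differences from the controls, the sign turned in 4 after quantile normalization, 4 in the authors' matrix, 3 with median centring and 1 with normexp, and none of the 80 was called. Dim probes limit S100a7a, S100a7l2 and S100g, which lay at the background on most arrays. They also limit S100a8 in the low squamous set, where it was well above background on 18 of 23 arrays.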
